A study of Mus musculus with 73 samples.

Results

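The 6 enhancer fragments of the Sox2 locus, E178 to E183, were described with every promoter on which they were measured in mouse embryonic stem cells. Their members were chosen by name alone: every measured plasmid type, here called a combination, that held a Sox2 fragment beside a scrambled control fragment, and every combination of Sox2 fragments with each other. Of 110180 combinations in all 8 libraries, 5510 met this rule. Of these, 2204 held a Sox2 fragment in position 1 and a control in position 2, 2471 held the reverse arrangement, and 835 held Sox2 fragments in both positions. The 6 fragments stood among 59 enhancer fragments and 20 controls.

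The assay was a massively parallel reporter assay, in which many reporter plasmids are tested together and each is read through its own barcode in the RNA. Pairs of fragments were cloned downstream of a barcoded reporter, each in the plus or the minus orientation, and each library carried 1 promoter: Sox2, Klf2, Otx2, Fgf5, Lefty1, Nanog, Tbx3, or that of the housekeeping gene Ap1m1. All libraries were transfected into the same line, E14TG2a, a male mouse embryonic stem cell line kept in the naive state with 2i and LIF, and RNA was collected after 24 hours. Each library was transfected in 3 biological replicates, giving 48 cDNA samples (RNA of the barcodes), with 16 pDNA samples (input plasmid) and 9 iPCR samples (the link between barcode and fragments). No other genotype, treatment or time was compared. The plasmids stayed outside the chromosomes, so distance, chromatin and neighbouring sequence of the native locus were absent.

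Sox2 encodes a transcription factor that, with Oct4 and Nanog, keeps embryonic stem cells pluripotent. In these cells its expression depends on a cluster of enhancers far downstream of the gene, known as the Sox2 control region or locus control region, which is bound by pluripotency factors and contacts the promoter over the intervening chromatin. An enhancer raises transcription from a promoter it is linked to, and clusters of this kind raise the question of how their elements act alone and together.

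The fragments lay in that downstream cluster, on chromosome 3 of the mm10 build, each listed as an interval of 450 bp and none overlapping an annotated RefSeq gene. In genomic order they were E178 at chr3:34755230-34755679, E179 at chr3:34756564-34757013, E180 at chr3:34757763-34758212, E181 at chr3:34759891-34760340, E182 at chr3:34760278-34760727 and E183 at chr3:34761124-34761573. They began between 104809 and 110703 bp past the end of the Sox2 promoter fragment, and the listed intervals of E181 and E182 shared 63 bp. Per the methods, primers were placed in the ends of each interval and the cloned products were shorter. How much the products of E181 and E182 overlapped was not determined here. The Sox2 gene itself is annotated at chr3:34649995-34652461. The designed primers that marked the ends of 3 fragments, the strongest alone (E180) and the partners with which it fell below the additive sum (E179 and E183), are printed 5′ to 3′, because they fix which DNA was tested and in which strand plus and minus are counted. Capitals mark the letters of a motif found in them.
E179 forward: aggTGACCTTGaaatgaccctcttatc
E179 reverse: aacagataagcaaccacagagaggag
E180 forward: tttaagtttgccttgtgagctcagg
E180 reverse: cggtattaaagtctccttcacaagacc
E183 forward: cctgagtgctataaaggtgggacatac
E183 reverse: ctctcctccagctccttcctctag

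Primers of the 59 enhancer fragments were searched on both strands for short motifs of pluripotency factors. CAAGGTCA, the letters bound by the nuclear receptor Esrrb, stood on the reverse strand of the E179 forward primer, and in 1 of 118 primers in all (0.847%). The octamer ATGCAAAT of the Oct4 family was in none. These letters describe the fragment ends only, since the inner sequence was not analysed here.

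Activity was the ratio of barcode counts in cDNA to those in pDNA. The boost index was a log2 ratio within a library and replicate. It set the median activity of a fragment's combinations with controls against the median activity of control-control combinations. A value of 0 is thus the level of the promoter with inert DNA. This baseline ranged from 0.0891 ± 0.0052 (SD, n = 3) with the Lefty1 promoter to 0.587 ± 0.0483 with the Ap1m1 promoter, and was 0.170 ± 0.00285 with the Sox2 promoter. In the Fgf5 library 37 of 60 control-control combinations were at 0 in a replicate and were left out, which left 23 for the baseline, against 219 to 477 elsewhere. Of the members, 45 were at 0 in a replicate, 39 of them with Fgf5, and these were left out too. Each fragment was measured beside controls in 7 to 151 combinations per library. The depth behind single combinations is unknown, so no counting interval is given. The replicates reused the same plasmids, so a deviation of a plasmid pool that repeats counts as signal: across combinations of 1 fragment and library the SD was 0.33 to 0.88 on the log2 scale, while the SD between replicates was 0.0092 to 0.83.

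With their own promoter all 6 fragments raised activity, and E180 raised it most. The boost index of E180 was 4.21, 4.27 and 4.12 in the 3 replicates, a mean of 4.20 ± 0.07 (SD, n = 3) or 18.4-fold over the baseline (limma, adjusted p = 1.5e-11). E183 followed with 3.39, 3.12 and 3.40, and E179 with 3.24, 2.92 and 3.04. These replicates of E183 and E179 overlapped, whereas each replicate of E180 lay above them. E182 measured 2.79, 2.64 and 2.53, below the range of E179. The weakest were E178, at 1.36, 1.12 and 1.53, and E181, at 1.20, 1.05 and 1.14, and those ranges overlapped. The order of strength therefore did not run along the chromosome: the outermost fragment E178 was weak, E180 in the middle was strongest and E181 beside it was weak again. Among the 56 enhancer fragments measured with this promoter, E180 ranked 3 and the median boost was 1.54.

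Over all 8 promoters, 44 of the 48 fragment and promoter values passed the 1% FDR as above controls, while 85.9% of all 446 enhancer and promoter values did. The 4 that did not were E178 and E181 with Fgf5, at -0.01 and -0.37 (limma, adjusted p = 0.955 and 0.186), and E178 and E180 with Ap1m1, at 0.11 and 0.25 (adjusted p = 0.016 and 0.053). E180, E183 and E179 held high values with the Lefty1, Tbx3 and Fgf5 promoters as well. E180 reached 4.70 with Lefty1, 25.9-fold over the baseline and the highest boost of any Sox2 fragment, 4.13 with Tbx3 and 3.56 with Fgf5. With Klf2, Otx2 and Nanog, E180 measured 1.71, 1.67 and 1.98. E180 had the highest mean of the 6 fragments with every promoter but Ap1m1.

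The housekeeping promoter gave another order. With Ap1m1 the replicates of E180 were -0.03, 0.51 and 0.27, a spread that included 0, and E180 ranked 46 of 57 enhancers. E182 came first among the 6 there with 0.71, 0.73 and 0.64, and ranked 10 of 57. The replicates of E182 lay above every value of the other 5 fragments, whose means were 0.11 to 0.41, and the values of E179, E183, E180 and E181 overlapped their neighbours in the order. Within the group, E182 was the steadiest member in rank, at 10 to 18 over the libraries, against 3 to 46 for E180 and 36 to 51 for E181.

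The middle and lower fragments kept similar places with the other promoters. E183 had means of 1.17 with Otx2, 2.14 with Fgf5, 3.11 with Lefty1, 1.34 with Nanog and 2.77 with Tbx3. E182 had means of 1.11, 1.46, 2.34, 1.29 and 2.00 with the same promoters, and its replicates overlapped those of E183 with Otx2 and Nanog. E179 had means of 0.81, 1.99, 2.70, 1.12 and 2.29. These 3 fragments were thus high or low with the same promoters, and with Lefty1 the replicates of all 3 lay apart, with E183 highest and E182 lowest. With Klf2, E182 and E179 had means of 0.93 and 0.84, below every replicate of E183. E178 and E181 stayed under 0.9 with every promoter other than Sox2, and their replicates overlapped each other with Otx2, Fgf5, Lefty1 and Tbx3. The means of E178 were 0.27 with Klf2, 0.36 with Otx2, 0.77 with Lefty1, 0.46 with Nanog and 0.72 with Tbx3. Those of E181 were 0.48, 0.31, 0.80, 0.56 and 0.80 with the same promoters.

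Differences between libraries were tested for each fragment on the boost index. All 6 fragments differed between the 8 libraries, as did 47 of 47 enhancers measured in every one (100%; limma F test). Against each of the other 7 libraries in turn, the Sox2 library gave the higher boost in 36 of 42 contrasts, with 68.7% of all 329 contrasts called in that direction, and the lower boost in 0 of 42, with 0.608% of all called so. The median contrast was 1.12 for the Sox2 fragments and 0.65 for all enhancers. All 6 were higher than with Klf2, Otx2, Nanog, Ap1m1 and Fgf5. Against Tbx3 only E178, E179, E182 and E183 were, by 0.61, 0.78, 0.65 and 0.53, and against Lefty1 only E178 and E182, by 0.57 and 0.31. For E180 the largest contrast was against Ap1m1, 3.95 with a 95% interval of 3.48 to 4.41 (adjusted p = 5.4e-12). The contrast of E180 with Tbx3 was 0.07, with an interval of -0.40 to 0.53, and with Lefty1 it was -0.50, with an interval of -0.97 to -0.03 (adjusted p = 0.053). With the replicate number as a block, this contrast was called lower in the Sox2 library (adjusted p = 0.033), in place of 0 lower calls. The libraries with low baselines (Lefty1, Tbx3 and Sox2) were those in which the fragments' boosts were high, and the part of the baseline in this was not tested. Promoter and library cannot be told apart, since each promoter was cloned in 1 library. The contrasts with Fgf5 rest on how zeros were treated: with the combinations at 0 kept, those of E179, E180, E182 and E183 took the opposite sign.

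The fragments were next compared by position and orientation. Over orientations pooled, position 2 gave a higher boost than position 1 in 10 of 48 tests and a lower one in 16, beside 24.9% and 27.5% of all 433 tests. E178, E179 and E183 were lower in position 2 wherever they were called, in 3, 6 and 4 libraries. With the Sox2 promoter, E178 was lower in position 2 by 0.45, 0.59 and 0.47 in the 3 replicates, and its difference was -0.50 ± 0.07 (limma, adjusted p = 3.1e-04). E181 went the other way and was higher in position 2 in 7 libraries, with differences of 0.16 to 0.47. The orientations were not equally represented in both positions, however, and when position was compared within each orientation, an alternative chosen after seeing the data, 1 test was called higher and 17 lower of 45. E181 then kept a call only with the Sox2 promoter, 0.25, with a range of -0.09 to 0.25 over 7 libraries, and its signs with Lefty1, Nanog and Ap1m1 turned. The share of calls over all enhancers was not determined for this alternative. Whether its counts are particular to the Sox2 fragments therefore cannot be said. Leaving out replicate 1, 2 or 3 left 19, 14 and 16 position calls with orientations pooled, and leaving out 2 or 3 moved the 26 calls by over 1.5 times.

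For E181, orientation made a difference in position 2. There the plus orientation was lower than the minus orientation with all 7 promoters that could be tested. With the Sox2 promoter the difference was -0.61, -0.89 and -0.67 in the replicates, a mean of -0.72 ± 0.14 (SD, n = 3; limma, adjusted p = 0.0016). With Lefty1 it was -1.26, -1.97 and -1.99. The means with the other promoters were -1.12 for Klf2, -0.96 for Otx2, -1.24 for Nanog, -0.98 for Ap1m1 and -1.50 for Tbx3. In position 1 the same fragment showed differences of -0.12 to 0.41, of which only the 0.41 with the Sox2 promoter was called, in the opposite direction. The levels show where the gap lay: in position 2 minus, E181 measured 1.52 with Sox2, 1.00 with Klf2, 0.75 with Otx2, 1.46 with Lefty1, 0.98 with Nanog, 0.62 with Ap1m1 and 1.54 with Tbx3. In position 2 plus it measured 0.80, -0.12, -0.21, -0.28, -0.26, -0.36 and 0.03 with the same promoters. Both orientations in position 1 fell between 0.17 and 1.12. Position 2 minus was therefore the highest of the 4 arrangements with each of these promoters. The -0.36 with Ap1m1 (replicates -0.23, -0.46 and -0.40; adjusted p = 7.1e-04) was the single value of the Sox2 fragments in any position and orientation called below controls, where 1.64% of all 1589 values were.

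The sign of the gap was also counted beside partners that were not controls. In position 2, with library, partner and partner orientation matched, the plus orientation of E181 was the lower in 162 of 164 comparisons beside controls (98.8%), with a median of -1.16. It was the lower in 68 of 68 beside other Sox2 fragments, with a median of -0.96, and in 550 of 553 beside enhancers of other loci, with a median of -1.03. In position 1 it was the lower in 78 of 174 beside controls (44.8%), in 22 of 74 beside Sox2 fragments and in 233 of 695 beside other loci. These comparisons were made on separate plasmids but share the fragment, and those beside controls reuse combinations in which the gap was found. The share over all enhancers was not determined. E182, whose listed interval shares 63 bp with that of E181, had no such gap called. Its orientation difference in position 2 ranged from -0.07 to 0.10 with no call in 7 tests. E180 was skewed the other way in position 2. Its plus orientation was the lower in 19 of 203 comparisons beside controls, 14 of 78 beside Sox2 fragments and 96 of 601 beside other loci.

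Averaged over both positions, 12 of 37 orientation tests of the Sox2 fragments were called, beside 54.7% of all 300 tests, and 6 of the 12 were of E181. By position, 4 of 37 were called in position 1 (19% of all 305) and 20 of 45 in position 2 (58.4% of all 409). The difference between the positions was called in 18 of 37 tests, beside 33.7% of all 300, and for E181 in 7 of 7. Without replicate 1, 2 or 3 these 18 calls became 7, 7 and 12. In position 2, E180 was higher in the plus orientation with 6 of 8 promoters, by 0.25 with Nanog to 0.51 with Tbx3, while its differences of 0.05 with Sox2 and 0.24 with Fgf5 were not called. E178 was lower in plus with 5 promoters and E183 with 2, by at most 0.36. E179 and E182 had no call in position 2. E180 in plus orientation was nearly missing from position 1, so its orientation there could not be tested.

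Pairs of Sox2 fragments were set against the sum of their single activities minus the baseline, each single taken in the position it held in the pair. There were 239 ordered pairs over the 8 libraries, each the median over its orientation combinations, of which there were 3.49 on average. A pair is written with the fragment in position 1 first. Of these, 30 were above the additive expectation (supra-additive, 12.6%) and 72 were below it (sub-additive, 30.1%), beside 24.7% and 12.2% of all 20334 ordered pairs. The median log2 ratio of observed over expected activity was -0.08 for the Sox2 pairs and 0.08 for all. A pair exceeded its stronger single in 84 cases (35.1%), against 53.8% of 21139 pairs, and lay below it in 29, against 5.9%. Against the product of the singles, the multiplicative expectation, 4 lay above and 172 below (72.0%), with 5.3% and 43.4% of 20444 pairs called so. The pair tests depend on all 3 replicates: without replicate 1, 2 or 3, the supra-additive count was 2, 3 and 12, the sub-additive count was 23, 34 and 56, and without replicate 1 the count above the stronger single was 54.

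Pairs with and without E180 had different counts. Of the 80 pairs that held E180, 1 was supra-additive and 46 were sub-additive, 3 lay above the stronger single and 26 below it, and the median log2 ratio was -0.40. Of the 159 pairs without E180, 29 were supra-additive and 26 sub-additive, 81 lay above the stronger single and 3 below it, and the median was -0.02. The counts also varied with the partner of E180. With E179, E180 was sub-additive in 14 of 16 ordered pairs and below the stronger single in 12, and with E183 it was sub-additive in 14 of 16. It was sub-additive in 10 of 16 with E181, in 8 of 16 with E182 and in 0 of 16 with E178. No test of the difference between these groups of pairs was made.

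With the Sox2 promoter the pair E179+E180 had boosts of 4.06, 4.02 and 3.81, where the sum of the singles gave 4.75. All 3 replicates lay under the expectation, by log2 ratios of -0.76, -0.71 and -0.88, a mean of -0.78 ± 0.09 (SD, n = 3; limma, adjusted p = 0.0053). The reverse order E180+E179 measured 4.04, 4.05 and 3.82 and a ratio of -0.63 (adjusted p = 0.0054). Both orders thus fell near the level of E180 alone or under it: the difference from the stronger single was -0.23 (adjusted p = 0.036) for E179+E180 and -0.19 (adjusted p = 0.053) for E180+E179. E183+E180 and E180+E183 were next, at -0.68 ± 0.09 and -0.67 ± 0.17.

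The lowest ratios called among all Sox2 pairs were those of E180 with E179 or E183. They were measured with the Nanog promoter, -1.03 ± 0.10 for E180+E179, -0.95 ± 0.15 for E183+E180 and -0.87 ± 0.16 for E179+E180. There E180+E179 had boosts of 1.05, 1.52 and 1.29, while E180 alone in position 1 had a mean of 2.01, so all 3 replicates of the pair lay under that mean. Among the 44 to 57 partners of E180 in a library, ordered from the lowest ratio, E179 ranked 5 to 11, E183 7 to 14, E181 12 to 17 and E182 10 to 40. The median over partners from other loci was -0.25 to 0.22, and in no library was a Sox2 fragment the lowest. E178 ranked 19 to 44.

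Supra-additive calls lay mainly among pairs without E180. With the Sox2 promoter, 6 of 18 pairs without E180 were supra-additive and 0 sub-additive, against 0 and 6 of 10 with E180. Over all enhancer pairs of that library, 38.6% were supra-additive and 7.81% sub-additive. The supra-additive share without E180 was thus no higher than over all pairs there. The pair E178+E182 had boosts of 3.39, 3.27 and 3.25, above the 2.97 of the sum in every replicate (log2 ratio 0.33 ± 0.02; limma, adjusted p = 0.014). The reverse order E182+E178 measured 3.50, 3.55 and 3.11, a ratio of 0.44 ± 0.30 (adjusted p = 0.058). With this promoter the highest ratio was that of E182+E181, 0.54 ± 0.13, with boosts of 3.83, 3.36 and 3.49 against a sum of 3.02 (limma, adjusted p = 0.010). Its reverse order E181+E182 had a boost of 2.71 and a ratio of -0.05, so the excess was seen in 1 order only. E183+E178 followed with 0.47 ± 0.12, and its reverse order had a ratio of 0.43. The same pair changed with the promoter. E178+E182 had ratios of 0.34 with Tbx3, 0.36 with Lefty1 and 0.76 with Fgf5, but -0.10 with Klf2, -0.10 with Otx2, -0.07 with Nanog and -0.24 with Ap1m1. For E182+E178 the ratios were 0.07, -0.06 and 0.71 in the first group and -0.09, -0.23, -0.03 and -0.36 in the second. The order of the fragments therefore moved this ratio with Tbx3 and Lefty1 more than with the other promoters named. The boost of the pair itself differed between the orders by 0.15 with Tbx3 and 0.09 with Lefty1, and most with Ap1m1, by 0.29. The sum of the singles also changed with the order, from 2.18 to 2.31 with Tbx3 and from 2.37 to 2.69 with Lefty1.

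Counts over all Sox2 pairs also differed by library. Supra-additive pairs were called with Lefty1 (10 of 31), Fgf5 (7 of 29), Tbx3 (7 of 30) and Sox2 (6 of 28), and with Klf2, Otx2, Nanog and Ap1m1 the count was 0. Sub-additive pairs were 17 of 31 with Ap1m1, 15 of 30 with Nanog, 13 of 29 with Otx2, 10 of 31 with Klf2, 6 each with Sox2 and Lefty1, 5 with Tbx3 and 0 with Fgf5. These calls rest on the spread between replicates. The study instead used the propagated SD, the spread of the singles over combinations carried to the sum. By that measure the Ap1m1 pairs lay between -0.96 and 0.05 SD of the sum, all within 1 SD. Over all enhancer pairs the same 4 libraries had the larger supra-additive shares, from 27.0% to 47.0%, with 6.73% to 12.6% in the others. Sub-additive shares over all pairs were 1.28% to 7.81% in the first 4 and 14.9% to 20.3% in the others. The 3 largest supra-additive ratios called were with Fgf5, 1.20 ± 0.63 for E178+E179, 0.98 ± 0.25 for E182+E181 and 0.93 ± 0.29 for E178+E183, and these rest on the 23 control-control combinations of that library. E178+E181 was higher there, 1.56 ± 1.23, but was not called (limma, adjusted p = 0.095). The singles were also sparse: E179 measured 0.93 in position 2, from 3 combinations, against 2.29 in position 1. In the reverse orders the ratios of the 3 called pairs were 0.31, -0.11 and 0.60.

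The pairs of highest and lowest boost in each library mostly held the strongest or the weakest fragments. The highest boost was 4.47 for E180+E182 with Sox2, 4.86 for E178+E180 with Lefty1, 4.43 for E178+E180 with Tbx3 and 4.57 for E180+E182 with Fgf5, the last in 1 orientation combination. E178+E180 was also highest with Klf2 (1.92) and Nanog (2.08), and E180+E182 with Otx2 (1.76). Each of these pairs held E180, and with Ap1m1 the highest was E179+E181 at 0.75. The lowest boost was that of E181+E178 with Sox2 (1.59), Klf2 (0.43), Otx2 (0.46), Nanog (0.65) and Tbx3 (1.37), a pair of the 2 weakest fragments. With Ap1m1 it was E180+E181 at -0.13. E178 paired with itself was lowest with Fgf5 (-0.77) and Lefty1 (0.57), in 1 orientation combination each. Its replicates were 0.10, 0.61 and -3.02 with Fgf5, and 0.91, 1.35 and -0.54 with Lefty1, so both low means came from replicate 3.

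Exchange of position made a modest difference to most pairs and a larger one to some pairs with E181. Both orders were measured for 117 pairs over the libraries. The median size of the difference in boost index between the orders was 0.169, 76 of the 117 differed by at most 0.25, and in 93 the log2 ratio of observed over expected had the same sign in both orders. The largest size was 1.36, for E179+E181 with Fgf5 (SD 0.91). E181+E182 minus its reverse was -0.85 with Sox2, -0.87 with Fgf5, -0.72 with Lefty1 and -0.78 with Tbx3. With Klf2, Otx2, Nanog and Ap1m1 this difference was -0.22, -0.05, -0.24 and 0.04.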

How the data were processed

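Activity tables of 8 promoter libraries were used. Per the methods, the authors counted barcodes in cDNA and pDNA, kept barcodes with at least 8 pDNA counts, divided cDNA by pDNA and averaged over at least 5 barcodes per combination, and the deposited values are these ratios for each of 3 replicates. The 73 samples (48 cDNA, 16 pDNA, 9 iPCR) were grouped by promoter library from the labels. Deposited combinations at 0 in a replicate were left out. Boost indices were computed with Python 3.11.15 (pandas 2.3.3, numpy 2.4.6) from medians over at least 3 enhancer-control combinations. They were tested over replicates with limma 3.58.1 in R 4.3.3, fitted on all enhancers or pairs, with Benjamini-Hochberg adjustment over all libraries, at 1% FDR for single fragments and 5% FDR otherwise. Scripts were tested on simulated data. The precision is set by 3 replicates, since the depth per combination is unknown. All 6 fragments are named. Of the pairs, those named are both orders of E178 with E182, the highest and lowest boost per promoter, the 3 highest and 3 lowest observed over expected with the Sox2 promoter, and the 3 largest calls in each direction. The members and lists were chosen with earlier results of these data known. The orientation fits by position, the comparison of matched partners and the motif search were chosen after seeing the data. Alternatives covered the zeros, the averaging, the minimum number of combinations, the baseline, the FDR, rank-sum tests over combinations (scipy 1.17.1), a replicate block and each replicate left out. The primers of E181 are not reported here.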

Additional observations from a re-analysis of the deposited data

Results flagged for a closer look

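The orientation difference of E181 (plus minus minus, on the boost index) was compared between positions, and this difference passed the 1% FDR (limma) with all 7 promoters in which it could be tested. Position 2 minus position 1 gave -1.13 with Sox2, -1.02 with Klf2, -0.84 with Otx2, -1.93 with Lefty1, -1.19 with Nanog, -1.02 with Ap1m1 and -1.73 with Tbx3. In each library this was the lowest or second lowest value of all enhancers tested. The plus orientation in position 2 was measured in 15 to 29 enhancer-control combinations and the minus orientation in 35 to 40, outside the Fgf5 library. What lay behind the difference was not tested.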

How the results depend on the processing

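The count of single fragments above controls was 41 to 44 when each replicate was left out. Leaving out a replicate gave 14 to 19 position calls, 8 to 10 orientation calls, 7 to 12 calls of orientation by position, 33 to 36 library contrasts, 2 to 12 supra-additive and 23 to 56 sub-additive pairs, 54 to 71 above the stronger single, and 129 to 157 away from, 2 to 5 above and 127 to 154 below the product of the singles. At 1% FDR the counts were 12 for position, 7 for orientation by position, 1 and 35 for supra- and sub-additive pairs, 45 above the stronger single and 1 above the product. Orientation gave 4 calls in position 1 and 20 in position 2. With at least 10 enhancer-control combinations per fragment, 23 library contrasts were called and 2 pairs lay above the product. Fewer contrasts were tested there than in the main fit: E179 and E182 had 7 combinations each with Fgf5 and dropped out. Geometric means gave 7 pairs above the product, and a pseudocount of 0.01 with zeros kept gave 0. More than 1 propagated SD below the sum lay 31 pairs and more than 1 above it lay 21, an alternative chosen after seeing the data.

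With zeros kept, the Sox2 minus Fgf5 contrasts became -0.10 for E179, -0.68 for E180, -0.0037 for E182 and -0.13 for E183. With position compared within each orientation, the differences became -0.033 with Klf2 and -0.0090 with Ap1m1 for E180, and -0.093 with Lefty1, -0.021 with Nanog and -0.064 with Ap1m1 for E181. E181+E178 with the Sox2 promoter became -0.30 when singles were pooled over positions. The cause was not tested. The replicate numbers are shared between libraries. Deviations of same-numbered replicates correlated by more than 0.1 in 78 of 84 cases (mean 0.45, lowest -0.21, highest 0.86), and 23 of 24 columns were closest to their own number. Same-numbered replicates thus mostly moved together across libraries, and the main library fit left this out, as it held no replicate block. With the replicate block 6 fragments still differed between libraries and 37 contrasts were called in place of 36, the added call being E180 against Lefty1, at -0.50 and so lower in the Sox2 library (adjusted p = 0.033). The limits lie in 3 replicates that reuse the same plasmids, in 1 library per promoter, and in the Fgf5 baseline.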
